A study of Mus musculus with 12 samples.

Results

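Aminoacyl-tRNA synthetases are the enzymes that join each amino acid to its own tRNA. The 36 genes described here were chosen by symbol, as listed cytosolic and mitochondrial synthetase genes, from the 21851 gene rows of the deposited tables. Earlier results of these data were known when they were chosen. Of these 36, 20 encode cytosolic enzymes or their subunits and 16 encode mitochondrial enzymes. Every symbol was found, and every gene passed the filter on low values (a 12-library mean of 1 FPKM or more).

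RNA from cells of the mouse peritoneal lavage was sequenced in 4 groups of 3 libraries each. The groups were lactoferrin knockout mice injected with LPS, knockout mice injected with PBS, wild-type mice injected with LPS, and wild-type mice injected with PBS. All mice were of the C57BL/6J strain and were injected into the peritoneum. LPS is the lipopolysaccharide of Gram-negative bacteria, which activates macrophages through Toll-like receptor signalling, and lactoferrin (Ltf) is an iron-binding protein stored in neutrophil granules. The question named for the study is how loss of lactoferrin changes gene expression in acute inflammation induced by LPS. No source used here gives the dose of LPS, the time after injection, the age and sex of the mice or the way the knockout was made. No sorting of the lavage is named, so each library is a mixture of cells. In such a mixture, fewer cells of a type and less RNA per cell cannot be told apart. The labels do not say that the 3 libraries of a group came from separate mice, so p-values measure the spread between these libraries, which may be technical.

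The unit of the values is not stated. They were read as FPKM, fragments scaled by transcript length and library total, and the order of levels between genes given below holds on that reading. The values of a library summed to between 343874 and 388129 FPKM, and 13921 to 14574 genes were above 0. The number of reads is unknown. Ltf was listed at 0.117, 0.0832 and 0.0699 FPKM in knockout LPS libraries and at 0.183, 0.258 and 0.212 FPKM in knockout PBS libraries. It was listed at 0.176, 1.33 and 0.275 FPKM in wild-type LPS libraries and at 1.89, 1.23 and 1.16 FPKM in wild-type PBS libraries. Ltf was 0.73 lower in the knockout on the log2(FPKM + 1) scale (-0.73, exact permutation test of the genotype labels within a treatment, two-sided p = 0.005, the smallest this test can give), and its low level kept it out of the test across genes. Adgre1, the macrophage surface protein F4/80, averaged 153 ± 25.6 FPKM in knockout LPS, 314 ± 81.9 in knockout PBS, 122 ± 14.1 in wild-type LPS and 351 ± 124 in wild-type PBS libraries (SD, n = 3 each). Wild-type PBS replicate 3 stood apart, with rank correlations of 0.949 and 0.934 to the other libraries of its group, against 0.973 or more for all other pairs within a group. The cytosolic medians and the calls of synthetase genes that moved with it are given below with and without it. Most estimates of single genes are given only with it.

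Synthetases fall into class I and class II by the fold of the catalytic domain. In the cytosol of mammals several of them form the multisynthetase complex on scaffold proteins. Mitochondria use their own set, which is encoded in the nucleus and imported, while Gars and Kars each supply both compartments from a single gene. When an amino acid runs short, its uncharged tRNA activates the kinase GCN2, phosphorylation of eIF2 follows, and translation of the transcription factor ATF4 rises. ATF4 binds C/EBP-ATF response elements and activates genes of amino acid synthesis and transport as well as several cytosolic synthetase genes.

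After LPS, nearly all cytosolic synthetase genes were higher in both genotypes, while the mitochondrial ones moved in both directions and less. The 1 added to FPKM before the log understates changes of low genes, and most mitochondrial ones are low. With 0.1 added instead, the median change was 0.76 cytosolic and 0.03 mitochondrial in the knockout. In wild type these medians were 1.13 and 0.17. In the knockout, 17 of 20 cytosolic genes were higher with LPS and 0 were lower (limma, Benjamini-Hochberg adjusted p under 0.05), with a median change of 0.74 on the log2(FPKM + 1) scale. Over all 9841 tested genes in the knockout, 53.2% passed, 19.9% as higher and 33.3% as lower, and the median change was -0.12. In wild type, 18 of 20 cytosolic genes were higher and 0 lower, with a median change of 1.11. Over all tested genes in wild type, 62.2% passed, 24.8% as higher and 37.4% as lower, and the median change was -0.11. Upper-quartile scaling moved the split of all calls to 2623 higher and 2631 lower in the knockout and to 3130 higher and 3060 lower in wild type, against 1958 higher and 3277 lower in the knockout and 2443 higher and 3680 lower in wild type as deposited. Relative to the median of all genes, the cytosolic median was 0.86 higher in the knockout and 1.22 higher in wild type as deposited, and 0.88 and 1.24 higher under upper-quartile scaling.

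The summed level of the 20 cytosolic genes shows the same contrast in FPKM. It was 944, 1071 and 890 FPKM in knockout LPS libraries, against 590, 618 and 573 FPKM in knockout PBS libraries. It was 928, 1217 and 1145 FPKM in wild-type LPS libraries, against 581, 523 and 458 FPKM in wild-type PBS libraries. The LPS and PBS libraries did not overlap in either genotype. The 16 mitochondrial genes together summed to far less, at 75.3, 82.6 and 67.8 FPKM in knockout LPS and 66.4, 68.2 and 65.1 FPKM in knockout PBS libraries. They summed to 75.8, 86.2 and 81.1 FPKM in wild-type LPS and 72.1, 62.3 and 69.5 FPKM in wild-type PBS libraries.

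**Figure D1:**
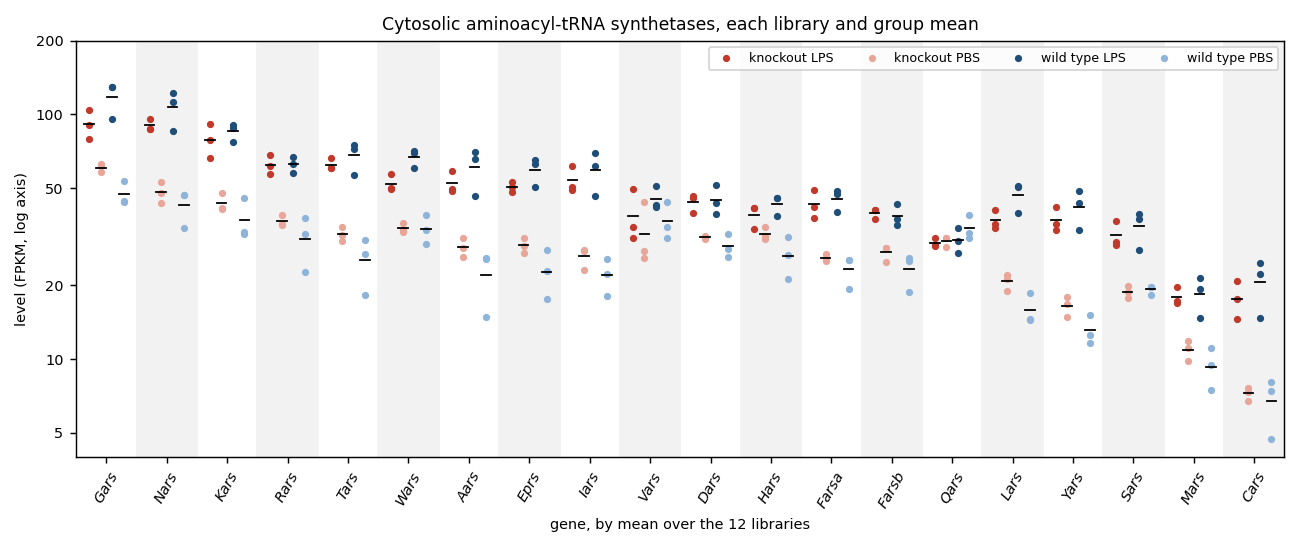
Level of the 20 cytosolic synthetase genes in every library (FPKM, log axis), with genes ordered by their mean over the 12 libraries; points are libraries, coloured by group, and bars are group means. The LPS points of Gars, at 79.2 to 129 FPKM, lie above its PBS points, at 43.7 to 62.6 FPKM, while the points of Qars overlap between LPS and PBS.

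The libraries of a group differed in ways that many cytosolic genes shared. Wild-type LPS replicate 1 was the lowest of its group for 20 of 20 cytosolic genes, knockout PBS replicate 3 was the lowest of its group for 17, and wild-type PBS replicate 3 for 15. Knockout LPS replicate 2 was the highest of its group for 19, and wild-type LPS replicate 2 for 18. Leaving out any 1 library changed no cytosolic call of the LPS comparisons. Without wild-type PBS replicate 3 the cytosolic median in wild type was 0.997, and without the 2 libraries richest in erythroid RNA, wild-type LPS replicate 2 and knockout LPS replicate 1, it was 1.06. The LPS and PBS libraries did not overlap, with LPS above PBS, for 17 cytosolic and 4 mitochondrial genes in the knockout, against 24.6% of all tested genes. In wild type this held for 18 cytosolic and 5 mitochondrial genes, against 27.2% of all. The LPS libraries lay below all PBS libraries for 4 mitochondrial and 0 cytosolic genes in each genotype, against 41.3% of all in the knockout and 38.9% of all in wild type.

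Yars, the tyrosine enzyme, changed most in wild type. Yars had 35.8, 41.7 and 33.7 FPKM in knockout LPS libraries, against 16.7, 17.9 and 14.9 FPKM in knockout PBS libraries, and 33.6, 48.8 and 43.3 FPKM in wild-type LPS libraries, against 15.1, 12.5 and 11.7 FPKM in wild-type PBS libraries. Each LPS library of Yars lay above each PBS library, and the change was 1.12 ± 0.15 (SE) in the knockout (adjusted p = 0.000111) and 1.60 ± 0.15 in wild type (adjusted p = 8.22e-06). Cars, the cysteine enzyme, had the largest change of the 36 genes in the knockout and the lowest level of the cytosolic genes in 3 of the 4 groups. Cars had 14.6, 20.8 and 17.5 FPKM in knockout LPS libraries, against 7.34, 7.64 and 6.74 FPKM in knockout PBS libraries, and 14.7, 24.6 and 22.4 FPKM in wild-type LPS libraries, against 7.43, 8.05 and 4.71 FPKM in wild-type PBS libraries. The groups of Cars did not overlap between LPS and PBS, and the change was 1.17 ± 0.21 in the knockout (adjusted p = 0.000784) and 1.48 ± 0.21 in wild type (adjusted p = 0.000113).

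Among the members of the multisynthetase complex, 7 of 8 were higher with LPS in the knockout (median 0.76) and 7 of 8 in wild type (median 1.11), and Qars was the exception in both. Lars, the leucine enzyme, which also senses leucine for mTORC1 in mammalian cells, had 35.7, 40.8 and 34.3 FPKM in knockout LPS libraries, against 21.2, 22.0 and 19.0 FPKM in knockout PBS libraries. In wild type Lars had 39.6, 51.0 and 50.5 FPKM with LPS, against 18.6, 14.4 and 14.6 FPKM with PBS. The change of Lars was 0.80 ± 0.13 in the knockout (adjusted p = 0.000496) and 1.51 ± 0.13 in wild type (adjusted p = 6.04e-06), with no overlap of LPS and PBS libraries. Iars, the isoleucine enzyme, had 49.1, 61.7 and 50.5 FPKM in knockout LPS libraries, against 27.7, 27.9 and 23.1 FPKM in knockout PBS libraries, and 46.4, 69.5 and 61.2 FPKM in wild-type LPS libraries, against 25.6, 22.2 and 18.1 FPKM in wild-type PBS libraries. Its LPS libraries were all above its PBS libraries, by 1.01 ± 0.17 in the knockout (adjusted p = 0.00053) and 1.38 ± 0.17 in wild type (adjusted p = 4.4e-05).

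Eprs, which carries both the glutamate and the proline activity in 1 protein and in human monocytic cells also joins a complex that represses translation after interferon gamma, had 50.3, 53.0 and 48.0 FPKM in knockout LPS libraries, against 29.0, 31.3 and 27.0 FPKM in knockout PBS libraries. In wild type Eprs had 50.4, 64.9 and 62.4 FPKM with LPS, against 27.9, 22.8 and 17.6 FPKM with PBS. Eprs was thus higher in all LPS libraries, by 0.77 ± 0.15 in the knockout (adjusted p = 0.00151) and 1.36 ± 0.15 in wild type (adjusted p = 2.73e-05). Kars, the lysine enzyme, had 78.9, 91.5 and 66.2 FPKM in knockout LPS libraries, against 41.4, 47.6 and 41.2 FPKM in knockout PBS libraries, and 77.2, 90.4 and 88.1 FPKM in wild-type LPS libraries, against 45.3, 32.3 and 33.0 FPKM in wild-type PBS libraries. The lowest Kars value with LPS was above the highest with PBS, and the change was 0.84 ± 0.15 in the knockout (adjusted p = 0.000945) and 1.20 ± 0.15 in wild type (adjusted p = 6.17e-05). The arginine enzyme Rars changed by 0.75 ± 0.16 and 1.02 ± 0.16 in knockout and wild type, the methionine enzyme Mars by 0.67 ± 0.15 and 0.92 ± 0.15, and the aspartate enzyme Dars by 0.46 ± 0.12 and 0.60 ± 0.12, all passing the test in both genotypes.

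Gars, the glycine enzyme, had the highest level of the 36 genes in every group. It had 90.9, 104 and 79.2 FPKM in knockout LPS libraries, against 62.6, 61.2 and 58.0 FPKM in knockout PBS libraries, and 95.4, 129 and 129 FPKM in wild-type LPS libraries, against 53.2, 44.2 and 43.7 FPKM in wild-type PBS libraries. LPS and PBS libraries of Gars did not overlap, and the change was 0.58 ± 0.15 in the knockout (adjusted p = 0.00626) and 1.30 ± 0.15 in wild type (adjusted p = 2.67e-05). Nars, the asparagine enzyme, had the next highest mean level, at 87.5, 95.6 and 87.3 FPKM in knockout LPS libraries, against 47.5, 53.1 and 43.5 FPKM in knockout PBS libraries. In wild type Nars had 85.5, 122 and 113 FPKM with LPS, against 46.7, 46.6 and 34.4 FPKM with PBS. Nars changed by 0.90 ± 0.16 in the knockout (adjusted p = 0.000696) and 1.31 ± 0.16 in wild type (adjusted p = 4.1e-05), and every LPS library was above every PBS library.

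Aars, the alanine enzyme, had 48.4, 58.6 and 49.8 FPKM in knockout LPS libraries, against 28.4, 31.3 and 26.2 FPKM in knockout PBS libraries, and 46.6, 70.5 and 65.9 FPKM in wild-type LPS libraries, against 25.9, 25.5 and 14.9 FPKM in wild-type PBS libraries. The PBS value of wild-type replicate 3 was the lowest of all 12, and the change was 0.85 ± 0.21 in the knockout (adjusted p = 0.00523) and 1.44 ± 0.21 in wild type (adjusted p = 0.000132). Exons of Exosc6, on the same strand, cover 14.3% of the annotated exon bases of Aars, and reads in them cannot be told apart. Tars, the threonine enzyme, had 60.2, 66.3 and 60.2 FPKM in knockout LPS libraries, against 32.0, 34.5 and 30.4 FPKM in knockout PBS libraries, and 56.4, 75.2 and 72.4 FPKM in wild-type LPS libraries, against 30.7, 27.0 and 18.3 FPKM in wild-type PBS libraries. Tars libraries with LPS all lay above those with PBS, by 0.93 ± 0.17 in the knockout (adjusted p = 0.000995) and 1.41 ± 0.17 in wild type (adjusted p = 4.36e-05).

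Wars, the tryptophan enzyme, is a known target of interferon gamma. It had 49.5, 57.0 and 50.1 FPKM in knockout LPS libraries, against 33.1, 36.1 and 33.8 FPKM in knockout PBS libraries, and 60.4, 69.4 and 70.7 FPKM in wild-type LPS libraries, against 33.7, 38.9 and 29.4 FPKM in wild-type PBS libraries. The change of Wars was 0.59 ± 0.12 in the knockout (adjusted p = 0.0016) and 0.96 ± 0.12 in wild type (adjusted p = 4.54e-05), below the cytosolic median in both genotypes. The phenylalanine enzyme is built from the subunits encoded by Farsa and Farsb, and these changed by 0.69 ± 0.13 and 0.52 ± 0.13 in the knockout and by 0.93 ± 0.13 and 0.71 ± 0.13 in wild type. Sars, the serine enzyme, changed by 0.73 ± 0.13 in the knockout and 0.81 ± 0.13 in wild type. All 4 of these genes passed the test in both genotypes. By class, 7 of 9 of class I and 9 of 10 of class II were higher in the knockout, with medians of 0.75 and 0.71, and 7 of 9 and 10 of 10 were higher in wild type, with medians of 1.02 and 1.07. Eprs belongs to both classes and was counted in neither.

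The cytosolic genes without a call were Qars and Vars in both genotypes and Hars in the knockout. Qars, the glutamine enzyme, had 31.2, 28.9 and 29.3 FPKM in knockout LPS libraries, against 31.4, 31.1 and 28.8 FPKM in knockout PBS libraries, and 27.1, 34.2 and 30.4 FPKM in wild-type LPS libraries, against 32.9, 31.4 and 38.6 FPKM in wild-type PBS libraries. Its groups overlapped, and the difference was -0.03 in the knockout (95% interval -0.27 to 0.21) and -0.16 in wild type (95% interval -0.40 to 0.08). The sign of the Qars difference in the knockout turns with the scaling, to 0.07 by median of ratios and 0.10 by the upper quartile. Vars, the valine enzyme, had 34.5, 49.5 and 31.3 FPKM in knockout LPS libraries, against 27.6, 25.8 and 44.0 FPKM in knockout PBS libraries, and 41.6, 51.1 and 42.6 FPKM in wild-type LPS libraries, against 34.5, 31.4 and 43.7 FPKM in wild-type PBS libraries. The high PBS libraries were replicate 3 in both genotypes. The 95% interval of the difference was -0.23 to 0.73 in the knockout and -0.18 to 0.78 in wild type. Of the called cytosolic genes, 11 of 17 in the knockout and 15 of 18 in wild type changed by more than its upper end. These counts leave out the error of the other genes, so whether Vars changed less was not tested.

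Hars, the histidine enzyme, had 41.4, 41.4 and 33.9 FPKM in knockout LPS libraries, against 30.9, 34.8 and 31.9 FPKM in knockout PBS libraries, and 38.4, 45.5 and 45.5 FPKM in wild-type LPS libraries, against 31.4, 26.6 and 21.3 FPKM in wild-type PBS libraries. The knockout libraries of Hars overlapped (0.25 ± 0.14, adjusted p = 0.161), and those of wild type did not (0.70 ± 0.14, adjusted p = 0.00132). Hars passed in the knockout once the libraries were scaled by median of ratios (0.34, adjusted p = 0.0472) or by the upper quartile (0.38, adjusted p = 0.03). Hars and Hars2 are divergent neighbours whose exons overlap on opposite strands over 7.97% of Hars and 4.56% of Hars2. Whether reads were counted by strand is not given in the sources used here. The shared reads cannot be told apart.

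**Figure D2:**
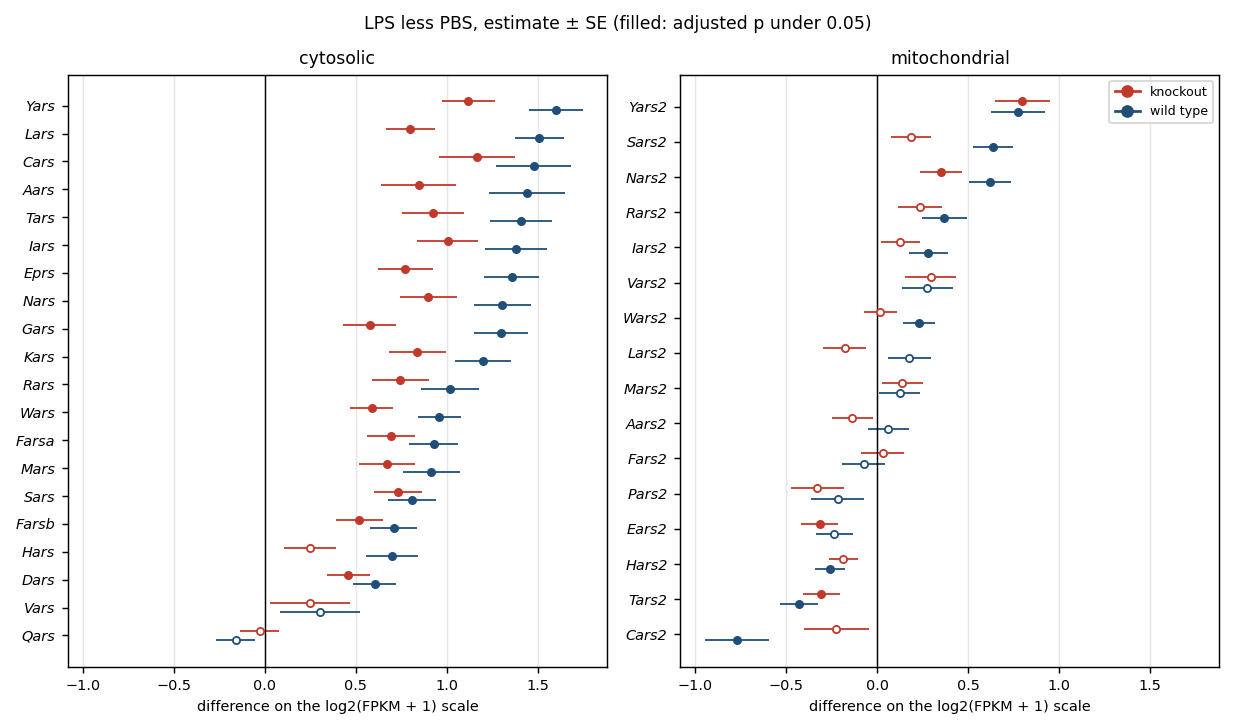
Change with LPS of each synthetase gene in the knockout and in wild type (estimate and SE on the log2(FPKM + 1) scale; cytosolic and mitochondrial genes in separate panels; filled points passed the test). The cytosolic estimates run from -0.03 to 1.17 in the knockout and from -0.16 to 1.60 in wild type, and the mitochondrial ones from -0.33 to 0.80 in the knockout and from -0.77 to 0.77 in wild type.

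The promoters of the genes are shown because the ATF4 element is known from several synthetase genes. RefSeq promoter sequences (GRCm38.p6, 250 bases before to 50 after the start) were matched for 27 of the 36 genes, 13 cytosolic and 14 mitochondrial. The 9 genes not matched were Cars, Hars, Lars, Nars, Rars, Vars, Wars, Hars2 and Pars2. The core of the C/EBP-ATF response element, searched as TGATGNAA on both strands, was present in 5 of 13 cytosolic promoters (38.5%), those of Aars, Gars, Iars, Tars and Yars, and in 0 of 14 mitochondrial ones, against 4.51% of the promoters of 27025 genes. The E-box CACGTG, a site that MYC and other factors can bind, was present in 4 of 13 cytosolic promoters (30.8%), those of Aars, Farsb, Iars and Tars, and in 1 of 14 mitochondrial ones (7.14%), that of Ears2, against 8.09% of all. No match of one motif overlapped a match of the other. The stretches below carry the ATF4 core of the 5 genes, read 5′ to 3′ on the strand of the gene, with the core in capitals.
Aars, chr8:111033690-111033777 (+): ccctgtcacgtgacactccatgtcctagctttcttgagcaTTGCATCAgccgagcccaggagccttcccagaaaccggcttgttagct
Gars, chr6:55037931-55038000 (+): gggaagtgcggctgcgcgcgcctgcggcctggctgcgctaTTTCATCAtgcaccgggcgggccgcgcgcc
Iars, chr13:49682097-49682149 (+): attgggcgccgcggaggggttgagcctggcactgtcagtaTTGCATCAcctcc
Tars, chr15:11399659-11399713 (-): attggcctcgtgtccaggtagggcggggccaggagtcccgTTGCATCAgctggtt
Yars, chr4:129189866-129189918 (+): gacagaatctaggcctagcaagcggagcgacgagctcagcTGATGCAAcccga
Counted from the annotated start, with negative positions before it, the core began at -112 in Aars, -30 in Gars, 8 in Iars, -15 in Tars and 4 in Yars. Aars held a second core at 10. The core was read as TTGCATCA in Aars, Iars and Tars and as TTTCATCA in Gars, which is the element on the other strand, and as TGATGCAA in Yars. A match is a description of these letters, and binding was not measured. All 5 genes were higher with LPS in both genotypes, as were 7 of the 8 cytosolic genes whose matched promoter lacked the core and 5 of the 7 without a matched promoter.

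The mitochondrial genes differed from this pattern and from each other. In the knockout 2 of 16 were higher with LPS and 2 lower, beside 19.9% higher and 33.3% lower of all tested genes, with a median change of 0.02. That count was 5 higher and 1 lower by median of ratios (median 0.09) and 5 higher and 0 lower by the upper quartile (median 0.11), and without knockout LPS replicate 1 it was 2 higher and 1 lower, with a median of -0.003. In wild type 6 were higher and 3 lower, beside 24.8% higher and 37.4% lower of all, with a median change of 0.15. Yars2, the tyrosine enzyme of mitochondria, changed most among those that were higher. It had 16.3, 19.8 and 13.2 FPKM in knockout LPS libraries, against 8.93, 8.58 and 9.23 FPKM in knockout PBS libraries, and 15.1, 18.1 and 15.9 FPKM in wild-type LPS libraries, against 11.1, 8.95 and 7.60 FPKM in wild-type PBS libraries. LPS and PBS libraries of Yars2 did not overlap, and the change was 0.80 ± 0.15 in the knockout (adjusted p = 0.00109) and 0.77 ± 0.15 in wild type (adjusted p = 0.000959). Yars2 was the highest mitochondrial synthetase gene in both LPS groups, and Iars2 was the highest in both PBS groups.

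Nars2, for asparagine, had 2.99, 3.87 and 3.32 FPKM in knockout LPS libraries, against 2.44, 2.32 and 2.55 FPKM in knockout PBS libraries, and 3.66, 3.70 and 3.99 FPKM in wild-type LPS libraries, against 2.66, 1.84 and 1.90 FPKM in wild-type PBS libraries. It passed in both genotypes without overlap, at 0.35 ± 0.12 in the knockout (adjusted p = 0.0244) and 0.62 ± 0.12 in wild type (adjusted p = 0.00078). The knockout call of Nars2 was lost without knockout LPS replicate 2 (0.27, adjusted p = 0.0989), knockout PBS replicate 1 (0.35, adjusted p = 0.0595) or knockout PBS replicate 2 (0.33, adjusted p = 0.0722). Sars2, for serine, had 4.33, 4.71 and 3.58 FPKM in knockout LPS libraries, against 3.60, 3.47 and 3.59 FPKM in knockout PBS libraries, with overlap (0.19 ± 0.11, adjusted p = 0.177). In wild type Sars2 had 4.41, 5.77 and 5.14 FPKM with LPS, against 2.98, 2.66 and 3.11 FPKM with PBS, with no overlap (0.64 ± 0.11, adjusted p = 0.000478). The knockout difference of Sars2 passed under median of ratios (0.26, adjusted p = 0.0411) and upper-quartile scaling (0.29, adjusted p = 0.0266).

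Rars2, Iars2 and Wars2, for arginine, isoleucine and tryptophan, passed as higher in wild type with smaller changes of 0.37 ± 0.12, 0.28 ± 0.11 and 0.23 ± 0.09. These calls depended on single libraries. Without wild-type LPS replicate 2 none of the 3 passed (Rars2 0.29, adjusted p = 0.0853; Iars2 0.28, adjusted p = 0.0818; Wars2 0.22, adjusted p = 0.0857), which left 3 mitochondrial genes higher. Rars2 also lost its call (0.27, adjusted p = 0.0774) once wild-type PBS replicate 3 was left out, and in the knockout it passed under median of ratios (0.32, adjusted p = 0.032) and upper-quartile scaling (0.36, adjusted p = 0.0224). Iars2 was lost in 5 of the 12 fits that left out 1 library (adjusted p 0.0508 to 0.15), those without wild-type LPS replicate 2 or 3, wild-type PBS replicate 1 or 2, or knockout PBS replicate 1. Of the fits without a wild-type library, only those without LPS replicate 1 or PBS replicate 3 kept the Iars2 call. The fits without a knockout library leave its estimate unchanged. Wars2 was lost in 10 of the 12 (adjusted p 0.0515 to 0.0941), all but those without knockout LPS replicate 2 or 3. Exons of genes on the other strand, Rab3gap2 among them, cover 24.2% of Iars2.

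The genes that were lower with LPS were all mitochondrial. Tars2, for threonine, was lower in both genotypes, at 2.82, 3.28 and 3.09 FPKM in knockout LPS libraries, against 3.73, 4.52 and 3.83 FPKM in knockout PBS libraries, and at 2.80, 3.56 and 3.03 FPKM in wild-type LPS libraries, against 4.83, 4.57 and 4.26 FPKM in wild-type PBS libraries. Its libraries did not overlap, and the change was -0.31 ± 0.10 in the knockout (adjusted p = 0.0263) and -0.43 ± 0.10 in wild type (adjusted p = 0.00365). The knockout call of Tars2 was lost without knockout LPS replicate 1 (-0.26, adjusted p = 0.0916) or knockout PBS replicate 2 (-0.24, adjusted p = 0.106), and under both other scalings (-0.23, adjusted p = 0.0683 and -0.20, adjusted p = 0.114). Cars2, for cysteine, had 1.75, 2.33 and 1.73 FPKM in knockout LPS libraries, against 2.55, 2.86 and 1.90 FPKM in knockout PBS libraries, and the libraries overlapped (-0.22 ± 0.18, adjusted p = 0.309). In wild type Cars2 had 1.71, 1.93 and 1.06 FPKM with LPS, against 2.72, 3.06 and 4.36 FPKM with PBS, with no overlap (-0.77 ± 0.18, adjusted p = 0.00291).

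Hars2, for histidine, passed as lower in wild type (-0.26 ± 0.08, adjusted p = 0.0147), at 3.86, 3.98 and 4.37 FPKM with LPS, against 4.85, 5.01 and 5.34 FPKM with PBS. Without wild-type LPS replicate 1 its adjusted p was 0.0531, with a change of -0.23, and under upper-quartile scaling its change was -0.15 (adjusted p = 0.124). Ears2 charges the mitochondrial tRNA for glutamate and, as the first step of an indirect route, that for glutamine. Ears2 had 1.16, 1.11 and 1.32 FPKM in knockout LPS libraries, against 1.70, 1.76 and 1.72 FPKM in knockout PBS libraries, and passed there as lower (-0.32 ± 0.10, adjusted p = 0.0229). The Ears2 call was lost in 5 of 12 fits, those without any 1 of the 3 knockout PBS libraries or without knockout LPS replicate 1 or 2 (adjusted p 0.0539 to 0.0718). Of the fits without 1 knockout library, only that without knockout LPS replicate 3 kept the call. The fits without a wild-type library leave this estimate unchanged. In wild type Ears2 had 1.35, 1.25 and 1.37 FPKM with LPS, against 1.93, 1.40 and 1.91 FPKM with PBS, and missed the threshold (-0.23 ± 0.10, adjusted p = 0.0673), which it passed without wild-type PBS replicate 2 (-0.33, adjusted p = 0.0131).

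The 6 mitochondrial genes called in neither genotype were Aars2, Fars2, Lars2, Mars2, Pars2 and Vars2. Lars2, for leucine, is the highest of them and had 6.93, 6.20 and 5.26 FPKM in knockout LPS libraries, against 6.71, 7.27 and 7.11 FPKM in knockout PBS libraries, and 7.74, 6.04 and 6.71 FPKM in wild-type LPS libraries, against 6.26, 5.10 and 6.41 FPKM in wild-type PBS libraries. The libraries of Lars2 overlapped in both genotypes, with differences of -0.18 ± 0.12 in the knockout and 0.18 ± 0.12 in wild type. Vars2 and Pars2 lay near the threshold in the knockout, at 0.29 ± 0.14 (adjusted p = 0.0953) and -0.33 ± 0.15 (adjusted p = 0.0772). Vars2 passed in both genotypes under both other scalings (0.33 to 0.39, adjusted p 0.0245 to 0.044), and in wild type also without wild-type LPS replicate 1 (0.42, adjusted p = 0.0186). Pars2 passed in the knockout without wild-type PBS replicate 3 (-0.33, adjusted p = 0.0312) or without knockout LPS replicate 1 (-0.43, adjusted p = 0.0455).

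**Figure D3:**
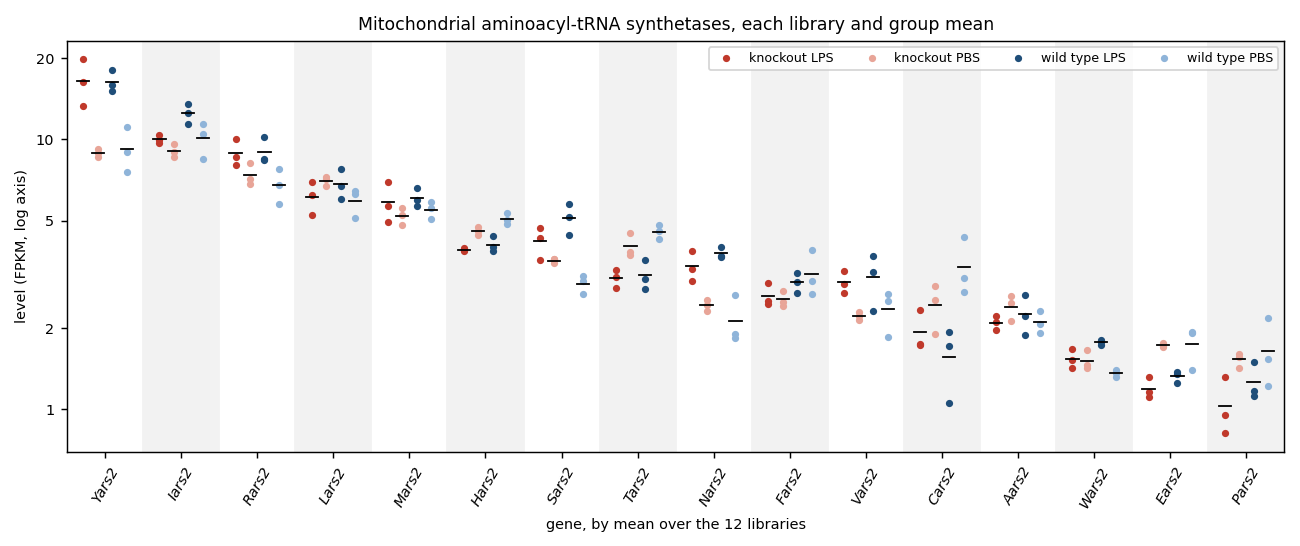
Level of the 16 mitochondrial synthetase genes in every library (FPKM, log axis), ordered by their mean over the 12 libraries; points are libraries, coloured by group, and bars are group means. Yars2 stands at 13.2 to 19.8 FPKM with LPS and 7.60 to 11.1 FPKM with PBS, while most other genes lie under 10 FPKM with groups close to each other.

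The libraries with LPS also differed from those with PBS in markers of cell types. Over all tested genes, 19.9% were higher and 33.3% lower with LPS in the knockout, and 24.8% higher and 37.4% lower in wild type. The 8 mature neutrophil markers together summed to 722 to 2684 FPKM in knockout LPS and 1256 to 3097 FPKM in knockout PBS libraries, and to 160 to 291 FPKM in wild-type LPS and 2035 to 3383 FPKM in wild-type PBS libraries. Of these 8, 3 were lower with LPS in the knockout and 7 in wild type, and none was at 0 in a group. The knockout count is near the share of all genes. The 8 large peritoneal macrophage markers summed to 640 to 675 FPKM in knockout LPS and 699 to 1202 FPKM in knockout PBS libraries, and to 570 to 806 FPKM in wild-type LPS and 632 to 1330 FPKM in wild-type PBS libraries. Of the 8, 6 were lower and 1 higher with LPS in the knockout, and 5 lower and 1 higher in wild type. The 6 B cell markers summed to 141 to 242 FPKM in knockout LPS and 634 to 871 FPKM in knockout PBS libraries, and to 231 to 329 FPKM in wild-type LPS and 502 to 1078 FPKM in wild-type PBS libraries, with 4 of 6 lower with LPS in each genotype. The 7 T cell markers, of which 5 were tested, summed to 7.07 to 14.5 FPKM in knockout LPS and 14.3 to 20.5 FPKM in knockout PBS libraries, and to 12.1 to 13.8 FPKM in wild-type LPS and 31.3 to 43.8 FPKM in wild-type PBS libraries, with 1 of 5 lower with LPS in the knockout and 5 of 5 in wild type. In the knockout this T cell count is not above the share of all genes. The 5 mast cell markers summed to 491 to 578 FPKM in knockout LPS and 548 to 877 FPKM in knockout PBS libraries, and to 704 to 720.1 FPKM in wild-type LPS and 284 to 759.6 FPKM in wild-type PBS libraries, with none called in the knockout and 1 higher in wild type. Erythroid RNA, read from 6 globin and red cell genes of which Slc4a1, the anion exchanger of red cells, was below 1 FPKM in every library, summed to 1886 FPKM in knockout LPS replicate 1 and 2225 FPKM in wild-type LPS replicate 2, and to 4.46 to 330 FPKM in the other libraries. With both of those libraries left out, no cytosolic call changed, while Ears2 and Tars2 in the knockout and Hars2, Iars2, Rars2 and Wars2 in wild type no longer passed. The part of the marker differences in the change of the synthetase genes was not tested.

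Between the genotypes no synthetase gene passed limma's test. Under LPS 0 of 36 were called in knockout against wild type, as was 0% of all tested genes, and 4 of 36 had an unadjusted p under 0.05, against 744 of 9841. Under PBS 0 of 36 were called, against 0.112% of all (0.0203% higher and 0.0915% lower), and 3 of 36 had an unadjusted p under 0.05, against 897 of 9841. For the interaction, the LPS change in the knockout minus the LPS change in wild type, 0 of 36 were called, against 0.0406% of all, and 7 of 36 had an unadjusted p under 0.05, against 946 of 9841. The calls over all genes depended on single libraries, while the count over the 36 was 0 in each of these fits. Without wild-type PBS replicate 3 the interaction had 43 genes higher and 6 lower and the PBS comparison 11 higher and 20 lower, and without wild-type PBS replicate 1 the PBS comparison had 14 higher and 25 lower. Without knockout LPS replicate 2 the interaction had 35 genes higher and 1 lower and the LPS comparison 26 higher and 3 lower. Without knockout PBS replicate 2 or 3 the interaction and the PBS comparison had 0. Other libraries left out gave 0 to 11 calls. The 3 comparisons share libraries with each other and with the LPS comparisons.

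The cytosolic estimates lay mostly on one side of 0. The LPS change was smaller in the knockout than in wild type for 19 of 20 cytosolic genes, with a median difference of -0.37 on the log2 scale. The same held for 9 of 16 mitochondrial genes, with a median of -0.10. Over all tested genes it held for 5231 of 9841, with a median of -0.02. Of the related lists described below, it held for 16 of 17 MYC and ribosome biogenesis genes, with a median of -0.37. It also held for 18 of 25 ATF4 pathway genes (median -0.23), 16 of 21 tRNA maturation genes (-0.11) and 11 of 13 eIF2 genes (-0.21). For elongation factors it held in 5 of 11 (median 0.03), and for interferon gamma genes in 6 of 14 (0.05). The mitochondrial median was 0.01 without wild-type PBS replicate 2, -0.05 without wild-type LPS replicate 3 or without knockout LPS replicate 3, and -0.03 with a pseudocount of 5. Under LPS the cytosolic median of knockout less wild type was -0.13 and 1 of 20 genes was above 0, beside -0.04 and 3923 of 9841 over all tested genes. Under PBS the cytosolic median was 0.24 and 17 of 20 were above 0, beside -0.02 and 4448 of 9841 over all. The 17 MYC and ribosome biogenesis genes had medians of -0.21 under LPS, with 1 above 0, and 0.16 under PBS, with 16 above 0. Many cytosolic genes moved together between the libraries of a group, so the 20 genes are not 20 separate observations. The PBS difference moved most with 1 library. Without wild-type PBS replicate 3 the cytosolic median under PBS was 0.09 and that of the interaction -0.26. Without the 2 libraries richest in erythroid RNA the interaction median was -0.25. The interaction median moved the other way with other libraries left out. It was -0.48 without wild-type LPS replicate 1, -0.45 without wild-type PBS replicate 1 and -0.44 without knockout LPS replicate 2. Without wild-type PBS replicate 1 the PBS median was 0.35. Under LPS it was -0.27 without wild-type LPS replicate 1, -0.23 without knockout LPS replicate 2, -0.09 without knockout LPS replicate 3, -0.05 without wild-type LPS replicate 2, and -0.02 without the 2 libraries richest in erythroid RNA.

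Lars and Gars had the lowest unadjusted p of the interaction. The Lars difference in LPS change was -0.71 ± 0.19 (adjusted p = 0.284, 95% interval -1.12 to -0.30), and its level was higher in every knockout PBS library than in every wild-type PBS library. The Gars difference was -0.72 ± 0.21 (adjusted p = 0.325, 95% interval -1.17 to -0.27), again with knockout PBS libraries, at 58.0 to 62.6 FPKM, above wild-type PBS libraries, at 43.7 to 53.2 FPKM. Wars had the lowest unadjusted p under LPS, with knockout LPS libraries at 49.5 to 57.0 FPKM and wild-type LPS libraries at 60.4 to 70.7 FPKM (-0.35 ± 0.12, adjusted p = 0.569). Cars2 was the mitochondrial gene with the largest estimate in the other direction, an interaction of 0.55 ± 0.25 (adjusted p = 0.522). The groups did not overlap under LPS for 1 of 20 cytosolic genes, Wars, and for 2 of 16 mitochondrial genes, Iars2 and Wars2, all lower in the knockout, as in 10.4% of all tested genes. No synthetase gene was higher in the knockout under LPS without overlap, against 5.03% of all. Under PBS they did not overlap for Aars, Gars, Lars, Lars2, Sars2 and Wars2, higher in the knockout as in 6.04% of all, and for Qars and Hars2, lower as in 7.34% of all. The 8 neutrophil marker genes were all higher in the knockout under LPS in estimate, with a median of 1.92 and 6 of 8 at an unadjusted p under 0.05. The 5 tested T cell markers were all lower in the knockout under PBS in estimate, with a median of -0.91 and 5 of 5 at an unadjusted p under 0.05. The 14 interferon gamma genes described below were all lower in the knockout in estimate, under LPS (median -0.37) and under PBS (median -0.35). Of these 14, 2 under LPS and 3 under PBS had an unadjusted p under 0.05. None of these lists had a called gene between the genotypes, and their part in the estimates of the synthetase genes was not tested.

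**Figure D4:**
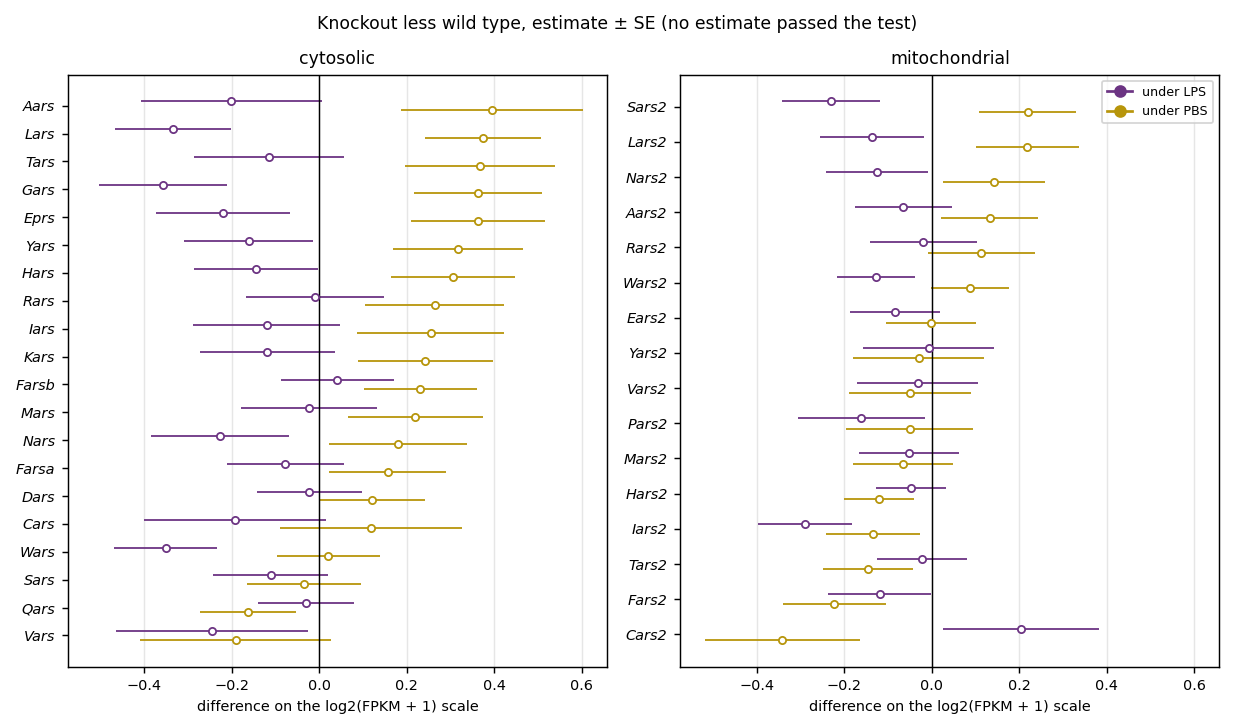
Difference of knockout less wild type under LPS and under PBS for each synthetase gene (estimate and SE on the log2(FPKM + 1) scale; cytosolic and mitochondrial genes in separate panels). No estimate passed the test, and the cytosolic ones lie mostly below 0 under LPS (median -0.13) and above 0 under PBS (median 0.24).

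Genes that work beside the synthetases were counted over lists of known pathway members, chosen with earlier results of these data known. For these counts, here and in the next paragraphs, the shares of all tested genes are the comparison. With LPS they were 19.9% higher and 33.3% lower in the knockout, and 24.8% higher and 37.4% lower in wild type. The 3 scaffold proteins of the multisynthetase complex were all higher with LPS in both genotypes. Aimp1 changed by 0.57 ± 0.10 in the knockout and 0.72 ± 0.10 in wild type, Aimp2 by 1.04 ± 0.15 and 1.08 ± 0.15, and Eef1e1, which encodes AIMP3, by 1.06 ± 0.20 and 1.38 ± 0.20. Of 21 genes that process, modify or export tRNA, 17 were higher in each genotype and 0 lower, with medians of 0.58 in the knockout and 0.72 in wild type. Pus7, a pseudouridine synthase, changed by 1.25 ± 0.20 and 1.73 ± 0.20, Nsun2, a tRNA methyltransferase, by 1.19 ± 0.17 and 1.63 ± 0.17, and Xpot, the exporter of tRNA from the nucleus, by 0.79 ± 0.13 and 1.28 ± 0.13 in knockout and wild type.

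Of 31 listed genes of the ATF4 pathway 25 were tested. In the knockout 16 were higher with LPS and 1 lower (median 0.76), and in wild type 17 were higher and 2 lower (median 0.88). Asns, the asparagine synthetase that makes the free amino acid, had 15.9, 23.9 and 18.7 FPKM in knockout LPS libraries, against 3.28, 3.10 and 2.71 FPKM in knockout PBS libraries, and 18.4, 41.0 and 30.4 FPKM in wild-type LPS libraries, against 3.44, 2.91 and 1.24 FPKM in wild-type PBS libraries. Its LPS and PBS libraries did not overlap, and the change was 2.33 ± 0.29 in the knockout (adjusted p = 7.37e-05) and 3.12 ± 0.29 in wild type (adjusted p = 8.37e-06). Chac1, an enzyme that degrades glutathione, changed by 2.76 ± 0.30 in the knockout and 3.03 ± 0.30 in wild type. Shmt2 and Mthfd2, of mitochondrial one-carbon metabolism, changed by 2.13 ± 0.22 and 1.82 ± 0.24 in the knockout and by 2.52 ± 0.22 and 2.61 ± 0.24 in wild type. Trib3, a pseudokinase, and Slc7a5, a leucine transporter, both changed by 1.90 in the knockout (SE 0.28 and 0.24) and by 2.85 ± 0.28 and 2.59 ± 0.24 in wild type. Atf4 itself was higher by 0.82 ± 0.17 in the knockout and 1.27 ± 0.17 in wild type. Ddit3 and Atf3 did not pass in either genotype. The lower genes were Nupr1 in the knockout (-0.58 ± 0.14), and Slc7a11, the cystine transporter (-1.54 ± 0.44), and Cebpg (-0.77 ± 0.16) in wild type.

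The eIF2 branch upstream of ATF4 was measured as RNA only. Of 13 genes of eIF2, its exchange factor and its kinases, 9 were higher and 1 lower in the knockout (median 0.32), and 8 were higher and 1 lower in wild type (median 0.49). Eif2ak4, which encodes GCN2, did not pass (0.11 ± 0.13 and 0.26 ± 0.13 in knockout and wild type). Eif2ak2, which encodes PKR, was higher by 0.85 ± 0.20 and 1.27 ± 0.20, and Eif2ak3, which encodes PERK, was the lower gene, at -0.90 ± 0.13 and -0.77 ± 0.13. Of 17 tested genes of MYC and ribosome biogenesis, 17 were higher in each genotype, with medians of 1.26 in the knockout and 1.65 in wild type, among them Myc at 1.76 ± 0.20 and 1.53 ± 0.20 and nucleolin (Ncl) at 1.67 ± 0.22 and 2.21 ± 0.22. Elongation factors moved less: 4 of 11 were higher and 1 lower in each genotype (medians 0.28 and 0.24), with Eif5a at 0.71 ± 0.17 and 0.99 ± 0.17 and Eef2k, the kinase that inhibits elongation factor eEF2, at -1.17 ± 0.26 and -0.98 ± 0.26.

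Of 14 tested genes induced by interferon gamma, the setting in which Wars is best known, 13 were higher and 1, Ciita, lower in each genotype, with medians of 1.49 in the knockout and 1.61 in wild type. Other genes related to synthetases moved little. Of 10 such genes, among them the amidotransferase that completes mitochondrial glutamine tRNA, 0 were higher and 2 lower in the knockout, Pstk and Sepsecs (median -0.03), and 1 was higher, Qrsl1, and 1 lower, Pstk, in wild type (median -0.03). These counts lie under the shares of all tested genes in both directions and both genotypes. Pstk, which phosphorylates the seryl-tRNA on the way to selenocysteine, was lower at -0.64 ± 0.14 in the knockout and -0.82 ± 0.14 in wild type. Sepsecs, which completes the same route, was lower at -0.70 ± 0.15 in the knockout, and Qrsl1, a subunit of that amidotransferase, was higher at 0.51 ± 0.15 in wild type. None of the genes in these related lists passed the test between genotypes or for the interaction.

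**Figure D5:**
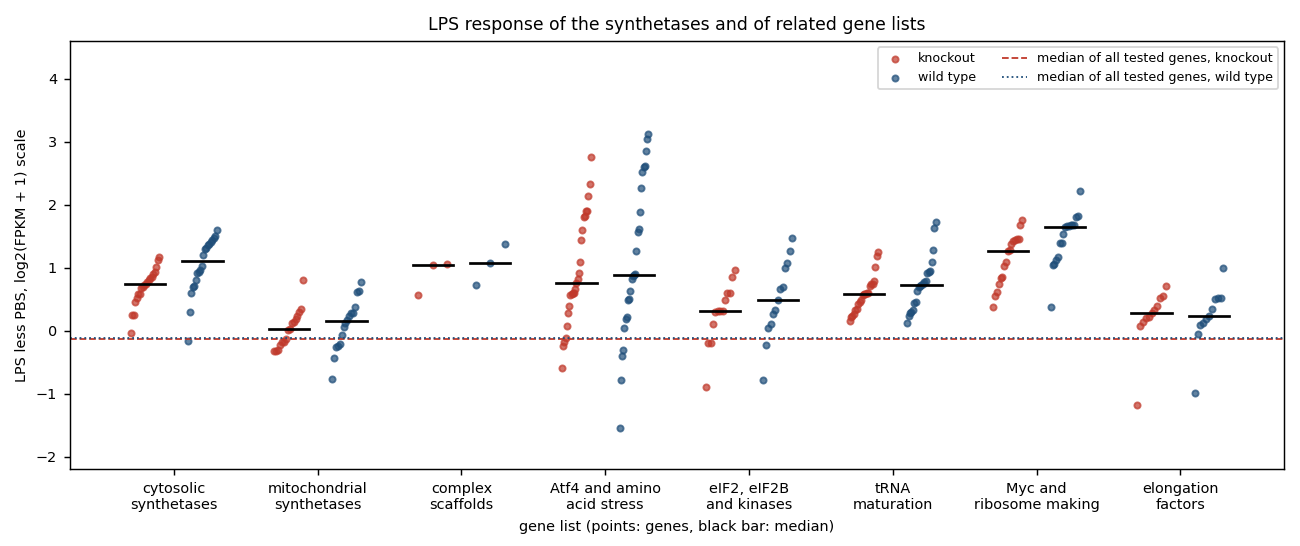
Change with LPS of each tested gene of the cytosolic and mitochondrial synthetases and of 6 related lists in the knockout and in wild type (estimates on the log2(FPKM + 1) scale; 1 point per gene, sorted by value within a list; black bars are list medians, and the dashed and dotted lines are the medians of all tested genes, -0.12 and -0.11). The medians are 0.74 in the knockout and 1.11 in wild type for cytosolic synthetases, 0.58 and 0.72 for tRNA maturation genes, and 1.26 and 1.65 for MYC and ribosome biogenesis genes.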

How the data were processed

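Total RNA of the lavage cells was isolated by a method that retains small RNA and sequenced as Solexa libraries, per the labels' protocols. For each library the authors deposited gene symbols with 1 value each, read here as FPKM since the values are not whole. No unit is stated. The submitters' processing notes name Cufflinks, TopHat, HTSeq, DESeq and the genome GRCm38 without versions or roles. Annotation, filters and strand were not stated there. The titles of knockout libraries speak of wild type, while their codes, descriptions and characteristics say knockout, which was used. Of 21878 rows, 27 with a symbol turned into a date were left out. Relative depth, from ratios of values under 0.2 FPKM, was 0.927 to 0.998 of wild-type PBS replicate 1. At most 18.3% of those ratios fell within 2% of the commonest one, and read counts could not be recovered.

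Testing covered the 9841 genes (45.0%) whose mean reached 1 FPKM, on log2(FPKM + 1) with limma 3.58.1 (trend, robust; statmod 1.5.0; R 4.3.3). All 12 libraries and 4 group means entered 1 fit. The pseudocount understates changes of low genes. P-values were two-sided and adjusted by Benjamini-Hochberg over all tested genes within a contrast, at 0.05. The procedure was also run on simulated data, with independent noise for each gene and changes added only to genes of higher level. That run does not bear on small changes, on low genes or on shifts that genes share within a library. Values in full are given for up to 10 called genes with the largest change per LPS comparison, for the 3 uncalled genes of highest level, and for further genes chosen after their values were seen (Wars, Hars and the other mitochondrial genes with a call, among others). From related lists up to 4 called genes were to be named by the same rule; Atf4, GCN2 and others were added for their role. The genes and lists were chosen with earlier results of these data known. Positions are from GENCODE M21 and promoters from RefSeq, both GRCm38. Figures were drawn with matplotlib 3.10.9 in Python 3.11.15. Alternatives covered pseudocount, filter, 2 scalings, variance model, libraries fitted, a replicate block and each library left out.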

Additional observations from a re-analysis of the deposited data

How the results depend on the processing

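Cytosolic calls with LPS were 17 higher and 0 lower in the knockout and 18 higher and 0 lower in wild type under every alternative run except the median-of-ratios and upper-quartile scalings, which gave 18 higher in the knockout. Over all 36 genes, higher calls ranged from 18 to 23 in the knockout (19 as reported) and from 21 to 25 in wild type (24 as reported). Lower calls in the knockout, 2 as reported, were 1 by median of ratios, 0 by upper quartile, 0 with a mean of at least 5 FPKM, 0 with both erythroid-rich libraries left out, and 0 to 3 with 1 library left out. Lower calls in wild type, 3 as reported, were 0 with a mean of at least 5 FPKM, where 5 of 16 mitochondrial genes were tested, and 2 to 4 with 1 library left out. The Qars difference in the knockout was -0.03 as reported, 0.0667 by median of ratios and 0.102 by upper quartile. Upper-quartile scaling moved the median LPS change of all genes by 0.11 in each genotype. Among the 36 synthetase genes, calls between genotypes and for the interaction were 0 under every alternative run.

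Over all tested genes, deviations of same-numbered samples in different groups had correlations of -0.254 to 0.193, with 5 of 18 pairs over 0.1, and the numbers were not taken to pair the samples. Within PBS the 3 pairs of knockout and wild type had 0.137, 0.0845 and 0.0991, and each sample correlated best with its own number there. These pairs were singled out after their values were seen and do not come from the design. Differently numbered samples reached 0.383 (wild-type LPS replicate 1 and knockout LPS replicate 3), so no pairing was read from the numbers. With the replicate number as a block, 19 genes were higher and 2 lower in the knockout and 22 higher and 3 lower in wild type, where Iars2 and Wars2 no longer passed. Several alternatives leave an LPS estimate as it is, so its direction could not change. These are the fits without a library of the other genotype, with another filter, a replicate block, the other variance model or only the groups compared. They are included in the counts that follow. Of 1862 alternative values for 86 single-gene results, 1793 kept their direction and side of the threshold, 43 no longer passed, 16 passed where the reported value had not, and 10 changed sign, all of genes that had not passed. Beside Qars these were Fars2 in the knockout (-0.0286 without both erythroid-rich libraries, -0.0286 to 0.0695 with 1 library left out), Fars2 in wild type (0.0299 by upper quartile, -0.163 to 0.0447 with 1 left out), Wars2 in the knockout (-0.0173 to 0.0597 with 1 left out) and Aars2 in wild type (-0.0243 without both erythroid-rich libraries, -0.0243 to 0.145 with 1 left out). The number of reads behind each value is unknown, which limits genes near 1 FPKM most.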
